A study of Mus musculus with 6 samples.

Results

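The region of Tmem88 is the subject here: 1 of the 10755 gene-keyed regions of a methylation table, chosen as the rows of that table that carry the RefSeq transcript NM_025915. It spans 3000 bp of mouse chromosome 11, from 69210737 to 69213736 (mm9), and holds 19 measured cytosines. The gene was picked because its region differed between the groups in the same data, so its levels in the groups are given as a description, without a test.

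DNA came from quadriceps muscle of C57BL/6 mice. In the exercised group (3 samples), mice trained on a motorised treadmill for 4 weeks, and muscle DNA was isolated 3 hours after their final bout. The sedentary group (3 samples) shares strain and tissue and did not train, and the labels name no genetic change or drug in either group. The labels do not say whether each sample was a different animal. The p-values below therefore measure only the spread between these samples, which may be technical. The method was reduced representation bisulfite sequencing (RRBS): genomic DNA is cut by a restriction enzyme, commonly MspI, which recognises CCGG, short fragments are kept, and after bisulfite treatment an unmethylated cytosine is read as T while a methylated one stays C.

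Tmem88 encodes a small membrane protein that binds Dishevelled, the cytoplasmic adaptor that relays a Wnt signal from Frizzled receptors, and it lowers the output of the canonical Wnt pathway, which runs through beta-catenin. It is best known from heart development, where dampening Wnt signalling helps progenitors become cardiomyocytes. In mammals methylation sits mainly at CpG, a sequence that reads the same on both strands, so each CpG has a cytosine on the forward strand and, at the next coordinate, one on the reverse strand. Methylation of promoters rich in CpG usually accompanies silencing, whereas promoters poor in CpG are often methylated to an intermediate or high degree. Muscle is a mixture of fibres, vessels, connective tissue and other cells, and a level measured on bulk DNA is an average over all of them, so a change in the mix of cells and a change within cells cannot be told apart.

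The 19 cytosines fell into 3 clusters. The low-end cluster held 2 positions (69211089 and 69211133), the middle cluster held 3 (69211929, 69211941 and 69211960), and the third held 14 positions within 43 bp (69212555 to 69212597). The third is called the paired cluster because its 14 positions formed 7 adjacent pairs, each pair being the first (forward strand) and second (reverse strand) cytosine of 1 CpG. The other 5 positions had no neighbour in the table.

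Where these clusters lie relative to the gene start followed from the way the regions were laid out. Over 3560 regions of genes on the plus strand and 3028 on the minus strand with a promoter sequence from RefSeq (GRCm38.p6), the measured positions fell on a CpG most often when the start site was set 2000 bp into the region for plus-strand genes (79.2% of positions) and 999 bp into it for minus-strand genes (79.7%). The median over all offsets tried was 21.1% and 22.9%. The sources used here do not give the strand of Tmem88. With either strand the paired cluster lay upstream of the start, by 182 to 140 bp on the plus strand or by 819 to 861 bp on the minus strand. The middle cluster likewise lay upstream, by 808 to 777 bp or by 193 to 224 bp. The low-end cluster would be upstream on the plus strand and downstream of the start on the minus strand. No promoter sequence of Tmem88 was used.

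Methylation of the region was intermediate in every sample and stood higher in exercised samples. The methylated share of its base calls was 61.7%, 62.6% and 66.2% in the exercised group (samples 1 to 3 in order, here and below) and 49.3%, 51.7% and 45.0% in the sedentary group. The groups did not overlap. The means were 63.5% ± 2.37 and 48.7% ± 3.44 (SD, n = 3 each), a difference of 14.8 points. The size of the difference depended on how the positions were combined. It was 7.67 points with the strands of a CpG merged and each CpG given equal weight, and 26.8 points on the second bases of adjacent pairs alone. Of the 10021 gene regions tested, 4.91% had groups that did not overlap with exercised higher, and 2.35% with exercised lower.

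The difference lay in the paired cluster rather than in the 5 unpaired positions. In the paired cluster the share of methylated calls was 60.5%, 63.5% and 64.1% in exercised samples and 47.4%, 47.4% and 40% in the sedentary ones. This was a difference of 17.8 points with no overlap. The unpaired positions together stood at 64%, 60.1% and 72.3% in exercised samples and at 55.4%, 74.4% and 76.2% in sedentary samples. Here the groups overlapped, and the difference of means was -3.24 points.

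**Figure D1:**
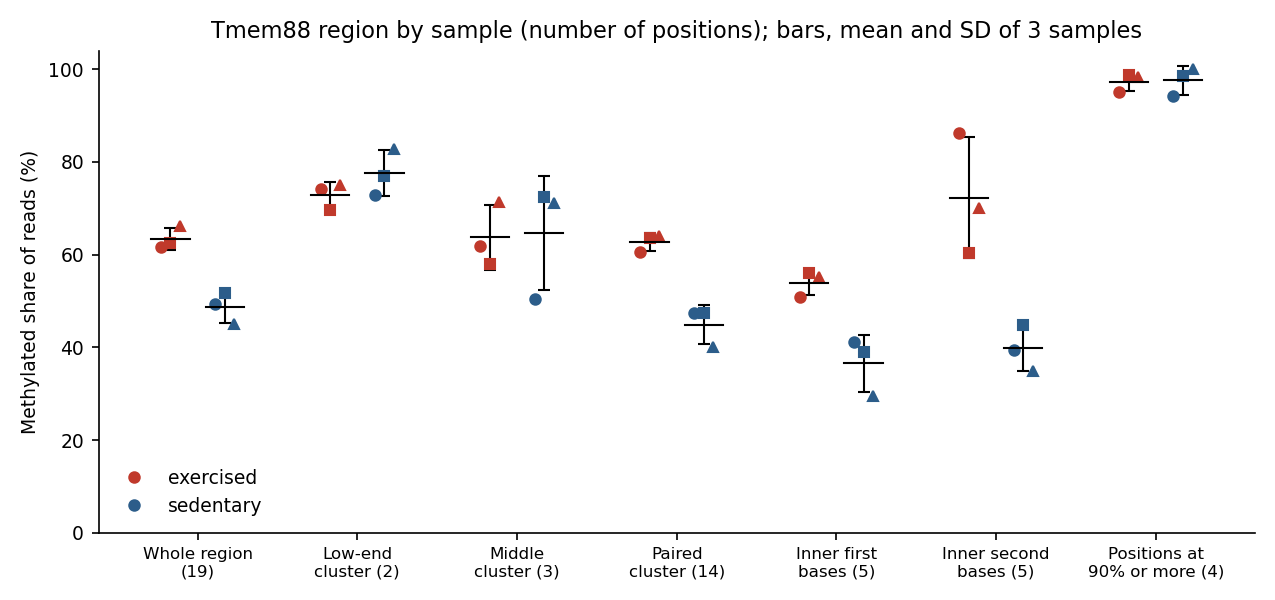
Methylated share of base calls (%, vertical axis) in each of the 6 samples for the whole Tmem88 region and for sets of its positions, with the number of positions in brackets; marker shapes are replicate numbers, horizontal bars the mean and error bars the SD of 3 samples. The groups are apart for the whole region, the paired cluster and its inner bases, and overlap for the low-end and middle clusters and for the positions at 90% or more.

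By position, 13 of the 19 had a higher mean in exercised samples and 6 a lower one, with differences from -19.2 to 44.4 points and a median of 13.1. Exercised samples lay above all sedentary samples at 8 of the 19, against 3.79% of the 268725 positions of the whole table, and below them at 1, against 2.04% of the table. In the authors' deposited table, 7 of the 19 had an unadjusted p under 0.05, all with exercised higher, against 2.15% of positions with a p-value in the table. The same table puts 5 of them in its class of strong hypermethylation, which holds 223 positions (0.083%). These 5 are the most in any region, and the next highest number was 3. Nothing is read from these counts, because the gene was chosen on this contrast.

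Besides the outer base 69212597 (13.4 points higher in exercised samples, without overlap), the difference lay mainly in the 5 inner pairs of the paired cluster. At all 10 of their bases the exercised mean was higher, by 12.9 to 44.4 points with a median of 22.9. At 7 of the 10 the groups did not overlap, against 3.79% of all positions with exercised higher. Nothing is read from these counts, or from those by strand below, because the gene was chosen on this contrast. With both bases together, the methylated share was 57.6%, 58.0% and 60.3% in exercised samples and 40.5%, 40.1% and 30.7% in sedentary samples. The exercised samples lay close together, and sedentary sample 3 stood below the other two of its group.

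On the first (forward strand) bases of the inner pairs, exercised values ran from 30.2% to 71.4% and sedentary values from 11.7% to 53.7%, with 54 to 110 reads behind each. Position 69212585 was at 55.1%, 60.9% and 57.4% in exercised and at 42.6%, 30.9% and 30.0% in sedentary samples. Position 69212575 was at 60.9%, 69.8% and 67.2% in exercised and at 53.7%, 51.8% and 35.0% in sedentary samples. At both, the lowest exercised value exceeded the highest sedentary one.

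The other first bases overlapped between groups. Position 69212565 was at 47.0%, 30.2% and 44.3% in exercised and at 38.9%, 14.2% and 11.7% in sedentary samples, where sedentary sample 1 lay inside the exercised range. Position 69212567 was at 48.5%, 47.6% and 44.3% against 24.1%, 45.4% and 31.7%. Position 69212571 was at 42.6%, 71.4% and 62.3% against 46.3%, 51.8% and 39.7%, with exercised sample 1 inside the sedentary range.

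On the second (reverse strand) bases of the inner pairs the groups did not overlap at any of the 5 positions, and the differences ran from 22.6 to 44.4 points. Position 69212586 held the largest difference of the region, with 93.8%, 64% and 78.1% in exercised and 39.3%, 32% and 31.2% in sedentary samples. Position 69212576 was at 93.8%, 72.2% and 93.9% against 41.9%, 64% and 43.8%, and position 69212572 at 93.8%, 69.1% and 87.9% against 51.6%, 64% and 43.8%. Exercised sample 2 was the lowest of its group at all 3, and sedentary sample 2 the highest of its group at 69212576 and 69212572. The inner second bases nearest the low end stood lower. Position 69212566 was at 87.5%, 46.3% and 39.4% against 32.3%, 24.0% and 31.2%. Position 69212568 was at 62.5%, 50.9% and 51.5% against 32.3%, 40% and 25.0%.

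**Figure D2:**
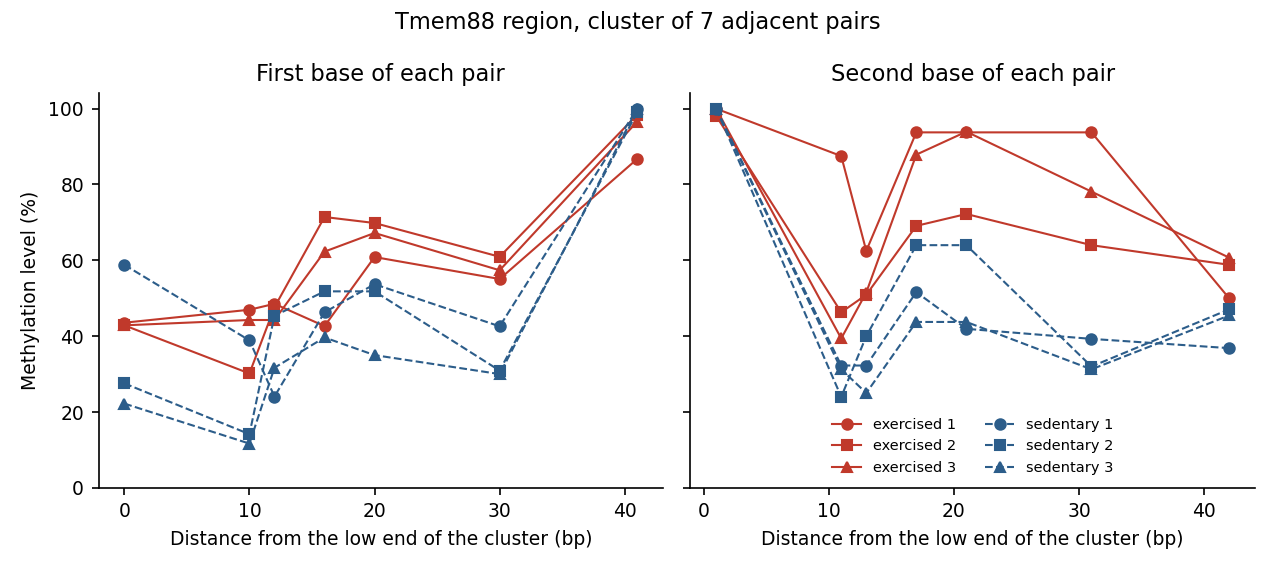
Methylation level (%) of each base of the paired cluster against its distance in bp from the low end of the cluster, for first bases (left) and second bases (right); each line is 1 sample, exercised solid and sedentary dashed. Exercised lines lie above sedentary lines at the 5 inner second bases, the groups overlap at 3 of the 5 inner first bases, and 1 base at an end of each panel is near 100% in both groups.

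Few reads stood behind the second bases. The inner second bases were covered by 16 to 55 reads per sample, and exercised sample 1 and sedentary sample 3 had 16 at each of the 5. The counts hardly changed between these positions, which lie within the length of a short read, so the 5 CpGs largely share reads and are not independent measurements. At position 69212586 the level of exercised sample 1 was 15 of 16 reads, with an exact binomial 95% interval of 69.8% to 99.8%, and that of sedentary sample 3 was 5 of 16, with an interval of 11% to 58.7%. At position 69212585, the first base of the same CpG, the intervals were 42.6% to 67.1% (38 of 69 reads) and 18.8% to 43.2% (18 of 60). These intervals cover counting error only, since the labels name no molecular identifiers.

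The balance of the strands also varied between samples. Reads on the inner second bases per read on the inner first bases numbered 0.235, 0.848 and 0.538 in exercised samples and 0.563, 0.230 and 0.268 in sedentary samples. The ranges overlapped. The level of a sample over both strands therefore weights them differently, and the strands are given separately above. Taken alone, the inner first bases stood at 54.0% ± 2.73 in the exercised and 36.5% ± 6.16 in the sedentary group (SD, n = 3), and the inner second bases at 72.3% ± 13.0 and 39.8% ± 4.91.

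**Figure D3:**
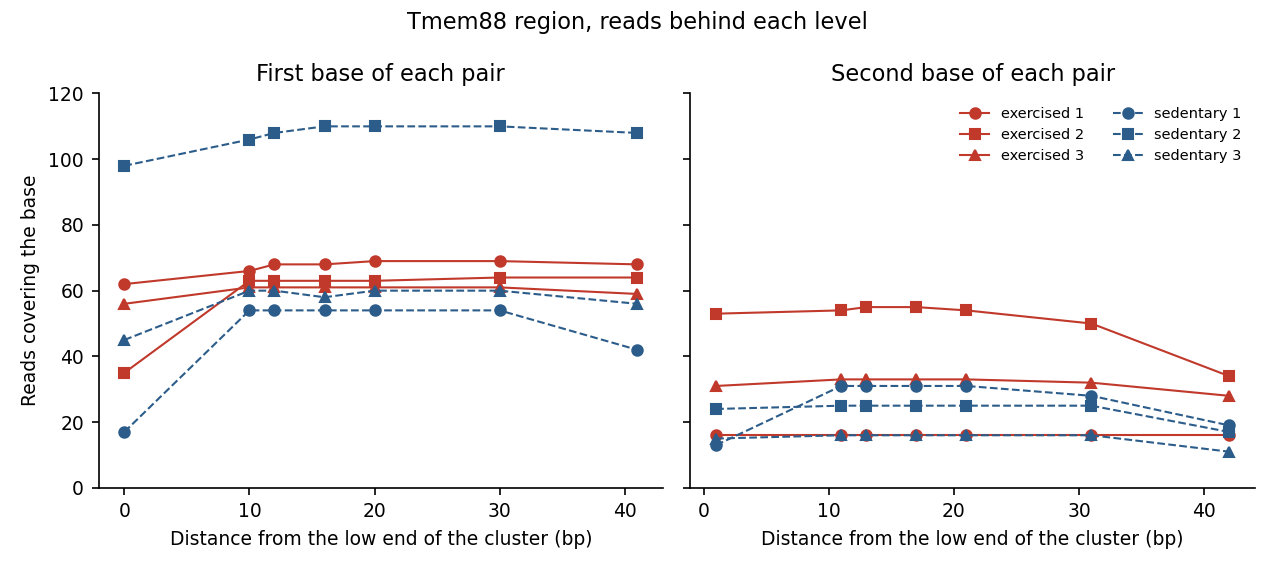
Number of reads covering each base of the paired cluster against its distance in bp from the low end, for first bases (left) and second bases (right), 1 line per sample. Inner first bases have 54 to 110 reads and inner second bases 16 to 55, with nearly level lines within a sample, and sedentary sample 1 drops at the ends of the cluster.

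Whether the strands of a CpG were equally methylated was asked over all 6 samples together. The gene was chosen for a group difference, which was 13.9 points on the first and 26.8 points on the second bases of the 7 pairs. The strand comparison is therefore not independent of that choice, and nothing is read from its p-values. Averaged over the 7 pairs, the second base exceeded the first by 28.1, 5.45 and 13.8 points in exercised samples and by -4.31, 7.20 and 7.18 points in sedentary samples. The mean was 9.57 points ± 10.8 (SD, n = 6), higher in 5 of 6 samples, and did not pass an exact two-sided sign-flip permutation test (p = 0.0625, smallest possible 0.03125). Leaving out exercised sample 1, which stood furthest from the rest, gave 5.87 points. Over the 5 inner pairs the mean was 10.8 points ± 13.2 (exact permutation p = 0.0625), from 35.4 points in exercised sample 1 to -1.64 in sedentary sample 1.

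That average hid a sharp opposition at the ends of the cluster. At the lowest pair the first base (69212555) was at 43.5%, 42.9% and 42.9% in exercised and at 58.8%, 27.6% and 22.2% in sedentary samples, while the second base (69212556) was at 98.1% or more in all 6. At the highest pair it was the first base (69212596) that was nearly full, at 86.8%, 98.4% and 96.6% in exercised and at 100%, 99.1% and 100% in sedentary samples. Here, and at no other of the 19 positions, exercised samples lay below all sedentary samples, with a difference of -5.75 points. Its partner (69212597) was at 50%, 58.8% and 60.7% against 36.8%, 47.1% and 45.5%, higher in exercised samples without overlap.

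At the lowest pair the second base exceeded the first by 60.0 points ± 13.2, in 6 of 6 samples, and at the highest pair it fell short by 47.0 points ± 11.2, in 6 of 6 samples. The exact permutation test gave p = 0.03125 for each, the smallest possible. Its p after adjustment over the 3 tests added for the inner, lowest and highest pairs was 0.0469. These end pairs were separated after their values were seen, each with a nearly full base beside an intermediate base. A difference of the same sign in every sample always gives this smallest p. The choice of the pairs therefore fixed the outcome, and nothing is read from these p-values.

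Positions near 100% at the ends of clusters also occurred outside these pairs. In the Tmem88 region 4 positions had a mean level of 90% or more, and besides 69212556 and 69212596 they were the lowest position of the low-end cluster (69211089) and that of the middle cluster (69211929). Together they averaged 97.4% ± 2.03 in the exercised and 97.6% ± 3.05 in the sedentary group. Without them the region stood at 52.0%, 52.6% and 57.4% in exercised and at 39.7%, 40.3% and 33.1% in sedentary samples, and the difference was 16.3 points in place of 14.8.

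Over all genes, such levels were far more frequent at CpGs within CCGG, the site that MspI recognises. Among positions inside the promoter windows (300 bases, RefSeq, GRCm38.p6, where 52.8% of windows hold CCGG, a motif that is the same on both strands), the 7955 at a CpG within CCGG had a mean level of 59.4%, with 38.3% of them at 90% or more. The 23813 at other CpGs had a mean of 5.41%, with 2.22% at 90% or more. A further 8031 positions fell on no CpG under this placement, with a mean of 19.6% and 11.5% of them at 90% or more. In adjacent pairs, the strands differed by more than 40 points in 72.9% of 2613 pairs within CCGG and in 2.84% of 8885 pairs elsewhere. As background, cutting CCGG with MspI leaves a short overhang that is filled in with supplied nucleotides during library preparation. A cytosine copied there does not report the genome. Whether this has a part in the levels within CCGG was not tested. Without a sequence for the Tmem88 cluster, the part of CCGG in its 4 nearly full positions was not tested.

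**Figure D4:**
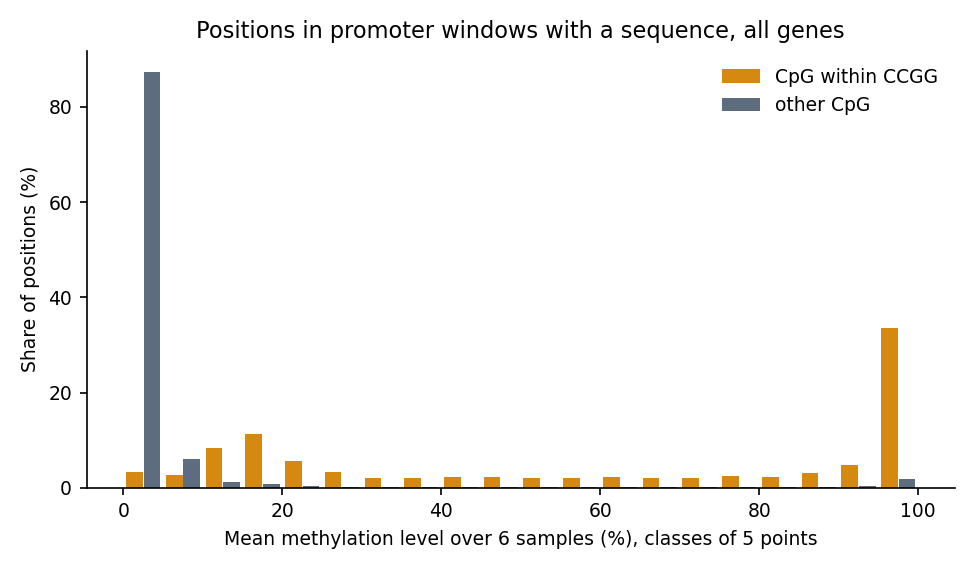
Share of positions (%) by mean methylation level over the 6 samples, in classes of 5 points, for CpGs within CCGG (7955 positions) and other CpGs (23813 positions) in promoter windows of all genes with a sequence. Other CpGs gather under 10%, and 38.3% of those within CCGG are at 90% or more.

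Of the 5 unpaired positions 4 had a lower mean in exercised samples and 1 a higher one, and at all 5 the groups overlapped. The nearly full positions among them, 69211089 and 69211929, differed by -0.59 and 5.01 points, the latter with sedentary sample 1 at 83.7% and the other samples at 98.8% or more. The other 3 were intermediate and spread more widely. Position 69211133 was at 43.5%, 22.7% and 14.3% in exercised and at 33.3%, 40% and 64.7% in sedentary samples, the largest difference toward lower values (-19.2 points), on 14 to 25 reads and with overlap. Position 69211941 ranged from 44.2% to 82.1% and position 69211960 from 23.3% to 44.1% over the 6 samples, also with overlap. In the middle cluster, each sample had the same or nearly the same number of reads at its 3 positions, from 15 in sedentary sample 3 to 86 in exercised sample 1.

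No cluster passed an adjusted test of its level against that of the other positions, but with 6 samples 1 cluster alone could not pass it. The low-end cluster exceeded the other positions by 20.4 points ± 12.7 (higher in 6 of 6 samples), the middle cluster by 8.89 ± 13.7 (5 of 6), and the paired cluster differed from them by -13.3 ± 15.1 (higher in 1 of 6). Exact sign-flip permutation tests adjusted over the 3 clusters gave p = 0.0938, 0.156 and 0.0938. By sample, the low-end cluster stood at 13.2, 7.46 and 9.40 points in exercised and 25.0, 27.1 and 40.3 in sedentary samples. The middle cluster stood at 0.232, -6.01 and 6.54 against 1.30, 23.0 and 28.3. The paired cluster stood at -3.51, 3.37 and -8.20 against -8.05, -27.1 and -36.2. The gene was chosen on the group contrast, so the pooled means and p-values are not independent of that choice. Leaving out sedentary sample 3 lowered the middle cluster's excess to 5.0 points and brought the paired cluster to -8.69. Without the 4 nearly full positions the values were -9.59, 1.14 and 0.581 points (adjusted exact permutation p = 1.0 each).

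Total depth over the region showed no difference between the groups beyond the spread of the samples. The total coverage of the 6 libraries ranged from 9153526 base calls (sedentary sample 3) to 18656340 (sedentary sample 2), and the Tmem88 region received 585 to 1092 of them per sample. As calls in the region per 1000000 calls of the library, this was 57.9 ± 4.69 in exercised and 55.4 ± 10.4 in sedentary samples, a ratio of 1.06 (exact two-sided permutation p = 0.8, smallest possible 0.1). The ratio was 0.945 without sedentary sample 1. Within the region the depth was uneven. The middle cluster had 257, 240 and 168 calls in exercised and 129, 102 and 45 in sedentary samples, without overlap. The paired cluster had 582, 770 and 643 against 513, 916 and 505, with overlap, and the low-end cluster overlapped too. These counts are not scaled to the library, and their difference was not tested. The pooled region level therefore weights the clusters differently between samples.

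Against the rest of the table, the Tmem88 region was more methylated than most. Its mean level over the 6 samples was 56.1%, above 95.9% of the tested regions, whose median was 22.0%. Among differences toward higher levels in exercised samples, on which the gene was chosen, it ranked 2 of 10021. It came after St6gal1, a sialyltransferase with 3 positions and 17.4 points, and before Rtl8c with 4 positions and 14.2 points. By size in either direction it ranked 5, and with positions at 90% or more left out of all regions it ranked 3 among 9465 for higher levels. The median difference of all tested regions was 0.390 points. Among the 446 other regions with a level of 40% to 80% and at least 5 positions, differences ran from -16.4 to 11.8 points with a median of -0.0973. The SD within groups was 2.95 points for Tmem88, and 25.3% of those 446 regions had a smaller one (median 4.16). As the gene was chosen on this contrast, its difference and SD beside those regions are a description only.

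In edgeR's quasi-likelihood test over all 10021 regions, which includes the spread between samples, no region passed a Benjamini-Hochberg adjusted p of 0.05 (0 of 10021). Before adjustment, 253 had a p under 0.05, namely 156 higher (1.56%) and 97 lower (0.968%) in exercised samples. limma likewise gave 0 regions, with 155 higher and 128 lower before adjustment. The p of the Tmem88 region itself is not given as a result, because its choice rests on this contrast.

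**Figure D5:**
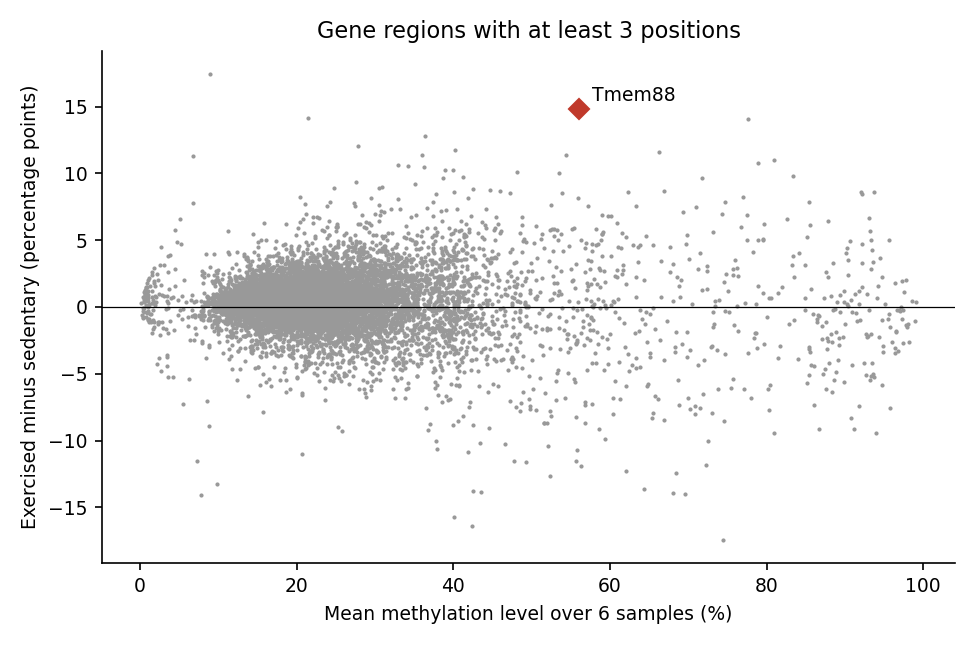
Difference between group means (exercised minus sedentary, percentage points) against mean methylation level over the 6 samples (%) for each of the 10021 gene regions with at least 3 positions; Tmem88 is the red diamond. Most regions lie at low levels near 0, and Tmem88 is at 56.1% and 14.8 points, where the highest of the other regions of 40% to 80% is Hsd17b2 with 3 positions at 14.1 points, and the highest with at least 5 positions is at 11.8 points.

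The regions with the sample pattern most like that of Tmem88 were sought among 9064 regions with at least 5 positions and a mean coverage of at least 20 reads. Likeness was the root mean square difference, over the 6 samples, between the deviations of a region from its own mean and those of Tmem88. The closest was Dnmt1, the maintenance DNA methyltransferase (3.08 points, Pearson r = 0.918), at 32%, 34.2% and 35.3% in exercised and 17.5%, 29.1% and 18.6% in sedentary samples. Its level was lower than that of Tmem88 throughout. Next came Ppox, an enzyme of haem synthesis (3.48 points, r = 0.920), Gpaa1, a subunit of the GPI transamidase (4.29, r = 0.837), Gdf15, a stress-induced secreted factor (4.40, r = 0.826), and Entpd2, an ectonucleotidase (4.51, r = 0.860). Since Tmem88 was chosen for a difference between the groups, regions like it share that order of samples by construction, and all of these values come from the same 6 libraries.

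The differences of the other Wnt pathway genes ran from -9.45 to 4.08 points. They are not ranked against Tmem88, which was chosen for its difference. Of 98 listed genes besides Tmem88, 80 had a tested region (82 regions): 52 had a higher and 30 a lower mean in exercised samples, with a median of 0.391 points beside 0.390 over all regions. None passed edgeR's adjusted p of 0.05 (0 of 82, and 1 with an unadjusted p under 0.05, the receptor Lgr6, which was higher), beside the 1.56% higher and 0.968% lower of all regions before adjustment. The count of 1 moved with single libraries and with the filters. It was 5 higher without exercised sample 3, 2 higher without sedentary sample 1, 3 lower without sedentary sample 2, 1 lower without exercised sample 2, and 0 with at least 20 reads in every sample or with regions of fewer than 3 positions included. limma gave 1 higher and 1 lower. More regions of the whole table were higher than lower too, since their median difference was positive. Nothing is therefore read from the counts of higher regions here and in the Wnt lists below.

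Among ligands, 8 of 19 regions were higher and 11 lower. Wnt8a, at 76.2% ± 6.12 in the exercised and 85.6% ± 2.48 in the sedentary group over 3 positions, had both the highest level and the largest difference of that list (-9.45 points). Among receptors, 14 of 17 were higher with a median of 0.830 points. Lgr6, a receptor for R-spondins, was at 10.5% ± 1.47 and 8.56% ± 0.844, and Fzd7, a Frizzled receptor of muscle stem cells, had the highest level of that list at 30.9% ± 2.48 and 29.4% ± 7.64.

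The Dishevelled genes, whose products Tmem88 binds, stood far below it. Dvl1 was at 13.2% ± 1.19 in the exercised and 11.3% ± 0.415 in the sedentary group over 62 positions, and Dvl3 at 18.4% ± 0.843 and 18.8% ± 2.25 over 54. Dvl2 and Tmem88b had no tested region. Of the 15 cytoplasmic regions 9 were higher, with Daam1, a formin downstream of Dishevelled, at -4.20 points, Gsk3b, the kinase that marks beta-catenin for destruction, at the highest level (25.8% over the 6 samples), and Axin1, the scaffold of the destruction complex, at 3.19 points.

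Among inhibitors, 12 of 17 regions, Tmem88 included, were higher. Tmem88 had the highest level, and also the largest difference, the value on which it was chosen. Frzb, a secreted decoy of Wnt ligands and the next most methylated, was at 42.9% ± 4.05 and 41.3% ± 2.62. Of 15 nuclear regions 10 were higher. The 2 regions of Ctnnb1, which encodes beta-catenin, differed by 1.14 and 0.853 points, Pygo2, a beta-catenin cofactor, by 3.25 points, and Bcl9l, another cofactor, had the highest level (46.9% ± 3.56 and 48.4% ± 6.83).

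Regions of marker genes of muscle and of other cells in it gave values for the make-up of the tissue, to which methylation of promoters is only an indirect guide. Of 14 skeletal muscle markers 3 had a tested region (Acta1, Des and Pvalb), with a mean level of 34.1% in exercised and 33.0% in sedentary samples, too few to check the tissue. Mean levels were 32.7% and 34.3% over 5 endothelial regions, 32.5% and 33.1% over 2 satellite cell regions, 26.5% and 27.5% over 2 leukocyte regions, 30.3% and 28.8% over 3 fibroblast regions, 57.5% and 62.3% over 4 adipocyte regions, and 31.7% and 30.0% over 3 nerve and Schwann cell regions. The adipocyte regions had the largest median difference (-5.76 points, 3 of 4 lower). No marker region passed edgeR's adjusted p of 0.05, and the part of the mix of cells in the Tmem88 difference was not tested.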

How the data were processed

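Per the submitters' processing notes, the tools were Bismark 0.7.7, Bowtie 0.12.9, cutadapt 1.0 and Trim Galore 0.2.5, with the build mm9; the sources used here do not give their roles and settings. The authors deposited 1 table with, for each position and sample, the methylated fraction (0 to 1) and a coverage count in reads, which was at least 10 everywhere. The fraction times the count was whole within 0.00236 of a read, and methylated counts were taken from it. The authors also deposited a score, the difference of group means, and an unadjusted p-value per position, which for Tmem88 matched a recomputed test with equal variances to within 4.45e-10. Symbols were matched for 10652 of 10755 transcripts through RefSeq (GRCm38.p6), used for names and promoter letters only.

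Members, lists and tests were chosen with earlier results of these data known. A region's level is its methylated calls over all its calls. A gap of over 100 bp separates clusters, and pairs were read from the low coordinate. Regions with at least 3 positions were tested with edgeR 4.0.16 under R 4.3.3. The model took methylated and unmethylated counts and had a term per sample, a group term on the methylated counts and Benjamini-Hochberg adjustment at 0.05, checked on simulated data; limma 3.58.1 was an alternative. For single values, permutation tests over samples were exact and two-sided. The genes named are Tmem88, the 5 regions most like it, regions within 25000 bp, and per Wnt list the largest difference and the highest level, with Tmem88b, Dvl1, Dvl2, Dvl3, Axin1 and Ctnnb1; others were named after their values were seen. Same-numbered samples of the groups did not deviate together (correlations of 0.0190, -0.219 and -0.111), so the numbers were not taken to pair them. The mean chi-square per position between samples was 1.64 at its lowest, above the 1 of sampling noise, so no 2 samples looked like 1 library deposited in duplicate; this does not show that they came from separate animals.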

Additional observations from a re-analysis of the deposited data

How the results depend on the processing

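The region difference of 14.8 points stayed between 12.9 and 16.3 points when each sample was left out in turn. It was 7.67 points with strands merged and each CpG given equal weight, 26.8 points on second bases alone and -3.24 points on unpaired positions alone. At a minimum of 20 reads the strand comparison was not run, because every pair had fewer on 1 base in some sample. The strand difference of 9.57 points ranged from 5.87 to 12.4 points without each sample, and was 60.0 points at the lowest and -47.0 points at the highest pair, settings chosen after seeing the data, as was the removal of positions at 90% or more. That removal took the low-end cluster from 20.4 to -9.59 points and the paired cluster from -13.3 to 0.581 points against the other positions. The coverage ratio of 1.06 ranged from 0.945 to 1.14 without each sample.

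With the replicate block in edgeR's test, 0 of 10021 regions and 0 of 82 Wnt regions passed an adjusted p of 0.05, as in every other alternative run, and 231 regions had an unadjusted p under 0.05 in place of 253. Leaving out exercised sample 3 raised this to 523, of which 440 were higher and 83 lower, and the split was 161 higher and 205 lower without sedentary sample 2 and 112 each without exercised sample 2. The cause of these shifts was not tested. Depth limits single positions most, as the intervals for levels on 16 reads show.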

Other observations

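The region of Naa38, a subunit of an N-terminal acetyltransferase, ends 444 bp before the Tmem88 region begins (chromosome 11, 69207293 to 69210292, mm9) and is the only other region within 25000 bp. It held 11 positions with levels of 24.0%, 19.3% and 17.9% in the exercised group and 17.9%, 18.0% and 25.3% in the sedentary group, so the groups overlapped, with a difference of -0.0253 points. Its positions were of another kind than those of Tmem88: 8 had a mean level under 5%, 2 were at 98.9% (69209520) and 99.5% (69208988), and 1 was at 49.5% (69209471). The highest coordinate of each of its 2 clusters was nearly full. Farther away, Kcnab3, a potassium channel subunit 69977 bp from the Tmem88 region, was at 25.7% ± 0.511 in the exercised and 23.1% ± 1.94 in the sedentary group over 17 positions. Its groups did not overlap, with exercised higher by 2.62 points, as in 4.91% of the tested regions. Trappc1, a vesicle tethering subunit, was at 56.7% ± 3.02 and 59.7% ± 8.24 over 2 positions, with overlap.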
